A study of Mus musculus with 10 samples.

Results

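The genes described are 7 small proline-rich protein genes, Sprr1a, Sprr2a1, Sprr2a2, Sprr2a3, Sprr2b, Sprr2d and Sprr2h, taken by gene symbol from the 55487 gene rows of an RNA-seq table of colonic intestinal epithelial cells (IECs). They are 7 of the 17 rows whose symbol begins with Sprr. They were chosen by their TPM in wild type (WT) against RhoB-/- libraries of this same table, so the genotype differences of the 7 genes are given as a description and carry no test.

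RhoB is a small GTPase, and the study asked how the transcriptome of colonic IECs differs when mice lack it. Colonic IECs were taken from 5 WT mice and from 5 mice lacking RhoB, all on a C57BL/6J background and without any labelled treatment, and their total RNA was sequenced as 1 library per mouse. IECs were released from the colon with a chelating and reducing buffer and were not sorted, so the libraries hold the whole epithelial isolate. The deletion is present in every cell of the RhoB-/- mice, not in the epithelium alone. Per the study's methods, the WT mice were bought from a supplier, while the RhoB-/- mice were generated at a different centre, so genotype and breeding source cannot be told apart. The labels give neither age nor sex, while the methods describe the bought WT mice as male and young adult mice as the default for the study. The study's n of 5 per genotype is read here as separate mice, which the labels do not say, and if libraries shared an animal the p-values would measure only the spread between these samples, which may be technical.

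Sprr proteins are precursors of the cornified envelope, the cross-linked protein shell under the membrane of keratinocytes that gives skin its barrier. Transglutaminases join them, through their glutamine- and lysine-rich ends, to one another and to loricrin and other envelope proteins, and the proline-rich middle repeats act as flexible bridges. Outside stratified epithelia, Sprr2 genes are known to be switched on in gut, bile duct and urinary tract epithelium by bacteria, by interleukin signals and by injury, and intestinal Sprr2a is known as a protein secreted into the mucus that kills Gram-positive bacteria. Sprr1a is also known as a gene that injured neurons, heart muscle and regenerating gut epithelium switch on.

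Values are TPM, the share of a library's transcripts that belong to a gene, a level that is corrected for transcript length and can be compared between genes. Rhob was at 170.5 to 388.7 TPM in the WT libraries and at 0.09, 0.10, 0.35 and 0.57 TPM in 4 of the libraries labelled RhoB-/-. The library labelled RhoB-/- replicate 5 held 110.9 TPM of Rhob, against its label, and the log2 differences of the members described at length are therefore also given without it. Of the TPM of WT libraries 17.5 to 26.5% went to mitochondrially encoded genes, and of that of RhoB-/- libraries 10.3 to 22.4%. The 14 colon epithelial markers were abundant throughout, with sums of 27020 to 31361 TPM (WT) and 27655 to 45340 TPM (RhoB-/-). Leukocyte markers, also 14, had sums of 22.2 to 41.3 TPM (WT) and 73.0 to 134.9 TPM (RhoB-/-). Ly6g alone averaged 21.2 and 71.1 TPM of these, and Itgam averaged 0.39 and 0.52 TPM. S100a8 and S100a9 were listed at 0 in all WT libraries. In the RhoB-/- libraries S100a8 averaged 1.4 TPM (0 to 4.99 TPM) and S100a9 averaged 1.948 TPM (0 to 4.23 TPM). The 9 mesenchymal markers had sums of 4.27 to 5.38 TPM (WT) and 6.52 to 36.6 TPM (RhoB-/-). The leukocyte and mesenchymal sums were higher in every RhoB-/- library than in every WT library, and their part in the differences described here was not tested. In whole isolates of this kind, fewer cells of a type and less RNA per cell cannot be told apart, and neither can more cells and more RNA per cell.

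The 17 Sprr genes lie side by side on mouse chromosome 3, within the epidermal differentiation complex, a stretch of the genome filled with genes of the cornified envelope. In the GENCODE M21 annotation of GRCm38 they span chr3:92215799-92500493, or 284.7 kb, with 13 genes on the plus and 4 on the minus strand. The Sprr2a copies open the cluster: Sprr2a1 lies at chr3:92215799-92221911, the main body of Sprr2a2 runs from an exon that starts at base 92250747 to base 92256724, and Sprr2a3 lies at chr3:92285417-92291405, all on the plus strand. Sprr2b (chr3:92316620-92318085), Sprr2d (chr3:92339140-92340873) and Sprr2h (chr3:92385685-92387324) follow on the same strand. Sprr1a (chr3:92483952-92485895) is on the minus strand near the far end, next to Sprr4.

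**Figure D1:**
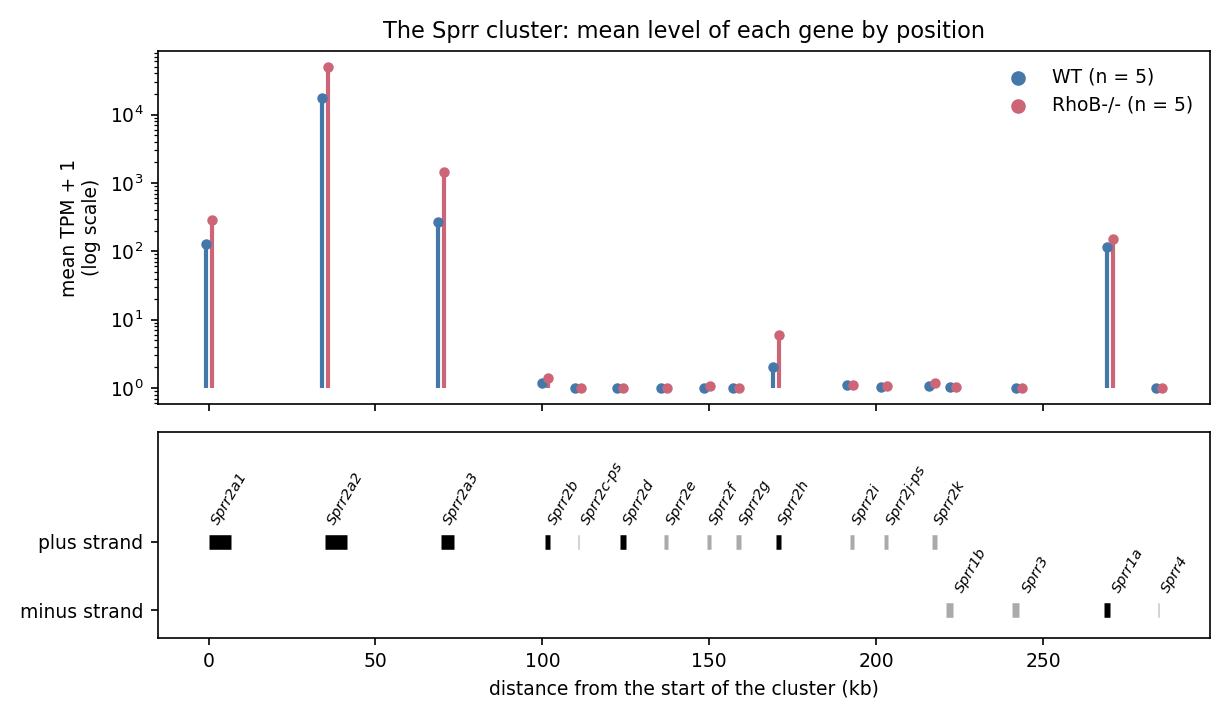
The upper panel plots the mean level of each Sprr gene (TPM + 1, log scale, n = 5 mice per genotype) against distance from the start of the cluster in kb, and the lower panel shows the genes on their strands. The 3 Sprr2a copies at the left end and Sprr1a near the right end stand far above the genes between them, and the mean of Sprr2a2 reaches 17292 TPM (WT) and 49838 TPM (RhoB-/-).

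The annotated sequences show how much these genes have in common, which bears on whether reads can tell them apart. The coding sequences of Sprr2a1 and Sprr2a2, as annotated in GENCODE M21, were the same over all 249 bases, and that of Sprr2a3 differed from them at 3 positions, an identity of 98.8%. Counting from 1 at the A of the start codon, the changes from Sprr2a2 to Sprr2a3 were G63A, G159T and A192T. Each falls on the last base of a CCN codon, which encodes proline whatever that base is, so none of the 3 changes the protein. Below, the bases of Sprr2a3 that differ are in capitals.
Sprr2a2: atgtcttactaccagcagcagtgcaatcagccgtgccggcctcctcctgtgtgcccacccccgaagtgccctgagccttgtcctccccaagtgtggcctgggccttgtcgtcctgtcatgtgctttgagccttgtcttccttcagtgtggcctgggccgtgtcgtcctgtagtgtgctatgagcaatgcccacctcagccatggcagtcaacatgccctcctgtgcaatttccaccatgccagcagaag
Sprr2a3: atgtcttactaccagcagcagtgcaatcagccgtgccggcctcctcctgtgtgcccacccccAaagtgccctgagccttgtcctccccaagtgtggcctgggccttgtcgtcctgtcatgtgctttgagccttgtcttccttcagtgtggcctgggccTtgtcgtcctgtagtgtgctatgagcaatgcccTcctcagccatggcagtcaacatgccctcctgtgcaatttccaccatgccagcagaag

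The other members are more distant. Against Sprr2a2 the identity over the whole alignment, with gaps counted as differences, was 75.3% for Sprr2b and 70.7% for Sprr2d. It was 63.1% for Sprr2h and 44.2% for Sprr1a, whose alignment held 197 gap columns. Where both sequences had a base, 223 of 247 bases were the same for Sprr2b and 193 of 231 for Sprr2d. The same count was 205 of 248 for Sprr2h and 194 of 242 for Sprr1a. Proline codons made up 26 of the 83 codons of each Sprr2a copy, or 31.3%, and 46 of 144 codons of Sprr1a, or 31.9%. The share was 41.8% in Sprr2b, 41.2% in Sprr2d and 42.6% in Sprr2h. The members with the highest levels were thus those with the lower proline share, a description over 7 related genes. The first 240 coding bases of Sprr2h and Sprr1a are shown with their proline codons in capitals, to make the repeats visible.
Sprr2h: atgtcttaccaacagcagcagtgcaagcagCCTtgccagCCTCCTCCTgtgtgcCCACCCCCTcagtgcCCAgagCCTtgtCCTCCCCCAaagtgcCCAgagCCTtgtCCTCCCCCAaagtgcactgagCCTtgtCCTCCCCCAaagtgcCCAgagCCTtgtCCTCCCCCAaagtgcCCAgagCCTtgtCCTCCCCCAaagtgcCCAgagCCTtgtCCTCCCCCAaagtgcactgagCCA
Sprr1a: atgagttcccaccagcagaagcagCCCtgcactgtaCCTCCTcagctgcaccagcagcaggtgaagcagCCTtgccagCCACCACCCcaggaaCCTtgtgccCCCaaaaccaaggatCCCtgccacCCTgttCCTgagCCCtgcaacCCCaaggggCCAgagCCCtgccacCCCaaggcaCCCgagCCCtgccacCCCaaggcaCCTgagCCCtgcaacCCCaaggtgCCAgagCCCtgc

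Shared sequence limits what a TPM value means for single copies. Each annotated transcript was cut into all its windows of 100 bases, and each window was looked for in the transcripts of the other Sprr genes. The reads of the study were paired and longer than these windows, so a read pair can hold a distinguishing base that a window lacks. Of the 722-base Sprr2a2 transcript, 623 of 623 windows also occurred in Sprr2a1, and none was its own. The longer Sprr2a2 transcript of 2867 bases had 7.23% of its windows to itself and the Sprr2a1 transcript of 3003 bases had 7.51%. Sprr2a3 had 83.4% of the windows of its shorter and 63.8% of those of its longer transcript to itself, and Sprr2b had 99.6%. Sprr1a, Sprr2d and Sprr2h shared no window with another Sprr gene, and genes outside the family were not searched. The division of reads between Sprr2a1 and Sprr2a2 is therefore uncertain. TPM divides reads by transcript length, and the transcripts of the copies run from 682 to 3003 bases, so the sum of the 3 copies depends on that division too. The 722-base Sprr2a2 transcript also borrows its first exon from the Sprr2a1 locus in this annotation, since it starts at base 92215920 within the first exon of Sprr2a1 and is spliced to the last exon at Sprr2a2.

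**Figure D2:**
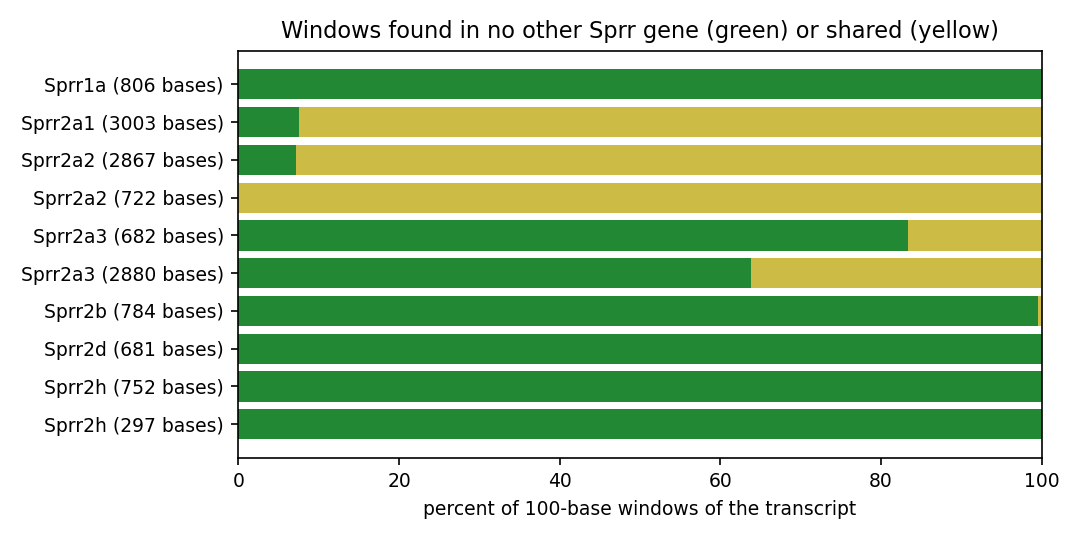
Bars show, for each annotated transcript of the 7 genes, the percent of its 100-base windows that occur in no other Sprr gene (green) or are shared (yellow). The Sprr2a1 and Sprr2a2 transcripts have 0 to 7.51% of windows of their own, while Sprr2a3 has 63.8 to 83.4% and the remaining genes at least 99.6%.

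Sprr2a2 was listed as the most abundant member in every library. Its TPM was 12749, 17606, 20326, 15431 and 20347 in the WT mice (replicates 1 to 5) and 50282, 41955, 44642, 45597 and 66714 in the RhoB-/- mice. The lowest RhoB-/- library was above the highest WT library, and the highest value of all belonged to RhoB-/- replicate 5. WT mice averaged 17292 ± 3269 TPM and RhoB-/- mice 49838 ± 9901 TPM (SD, n = 5 each), a ratio of 2.88. On the log2(TPM + 1) scale the difference was 1.53, and 1.42 without RhoB-/- replicate 5. This 1 row took 1.28 to 2.08% of all TPM of a WT library and 4.24 to 6.75% of that of a RhoB-/- library. Leaving aside mitochondrially encoded genes, it ranked 4th to 6th among all genes in the WT libraries, 2nd in RhoB-/- replicate 2 and 1st in the other RhoB-/- libraries.

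Sprr2a3, the copy whose reads are best separated, showed the largest difference among the members. Its TPM was 201.7, 287.2, 275.6, 230.7 and 321.3 in WT replicates 1 to 5 and 1454, 1293, 1261, 1399 and 1846 in RhoB-/- replicates 1 to 5. Every RhoB-/- library was thus far above every WT library. The means were 263.3 ± 47.3 TPM (WT) and 1450.4 ± 234.3 TPM (RhoB-/-, SD, n = 5 each), a ratio of 5.51 and a difference of 2.46 on the log2(TPM + 1) scale (2.37 without RhoB-/- replicate 5).

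Sprr2a1 was listed as the lowest of the copies, with an uncertain division of reads between it and Sprr2a2. It was listed at 103.4, 116.6, 154.1, 110.5 and 152.1 TPM in the WT and at 264.5, 277.5, 224.9, 299.97 and 383.7 TPM in the RhoB-/- libraries. Again no RhoB-/- library fell into the WT range. The means were 127.4 ± 23.98 and 290.1 ± 58.98 TPM (SD, n = 5 each), with a difference of 1.18 on the log2(TPM + 1) scale and of 1.07 without RhoB-/- replicate 5.

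The sum of the 3 copies, which also rests on how reads were divided among transcripts of unequal length, averaged 17682 ± 3334 TPM for WT mice and 51579 ± 10181 TPM for RhoB-/- mice (SD, n = 5 each). Its range was 13054 to 20820 TPM (WT) and 43525 to 68943 TPM (RhoB-/-), and the ratio of means was 2.92. The difference was 1.55 on the log2 scale and 1.44 without RhoB-/- replicate 5. Sprr2a2 made up 96.2 to 97.6% of the sum of all 7 members in each of the 10 libraries, so any statement on the sum is a statement on that row.

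The copies did not keep 1 ratio between genotypes. Per 100 TPM of Sprr2a2, WT libraries held 1.36 to 1.63 TPM of Sprr2a3 and RhoB-/- libraries 2.77 to 3.08 TPM. Per 100 TPM of Sprr2a1, they held 178.8 to 246.3 TPM (WT) and 465.7 to 560.6 TPM (RhoB-/-). Neither ratio overlapped between genotypes. Sprr2a1 per 100 TPM of Sprr2a2 was 0.662 to 0.811 (WT) and 0.504 to 0.662 (RhoB-/-), so these ranges all but touched. The part of the read division in these ratios was not tested.

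**Figure D3:**
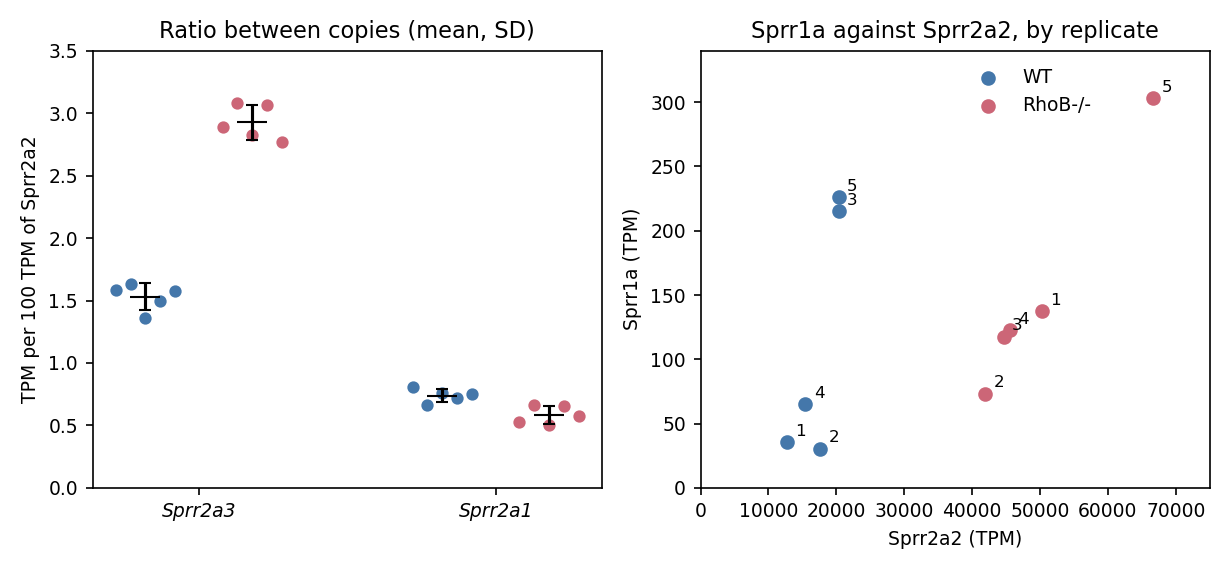
The left panel plots the TPM of Sprr2a3 and Sprr2a1 per 100 TPM of Sprr2a2, with points for mice and the mean and SD of each genotype (n = 5). The right panel plots Sprr1a against Sprr2a2 in TPM, labelled by replicate. The Sprr2a3 ratio lies at 1.36 to 1.63 in WT and at 2.77 to 3.08 in RhoB-/- mice, whereas the genotypes overlap in Sprr1a on the vertical axis and separate in Sprr2a2 on the horizontal axis.

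Sprr1a behaved differently. Its TPM was 35.5, 30.5, 215.1, 65.4 and 226.3 in WT replicates 1 to 5 and 137.2, 73.3, 117.7, 122.8 and 303.4 in RhoB-/- replicates 1 to 5. WT replicates 3 and 5 were higher than every RhoB-/- library but replicate 5, so the groups overlapped widely. The means were 114.6 ± 97.9 TPM (WT) and 150.9 ± 88.5 TPM (RhoB-/-, SD, n = 5 each), and the difference was 0.72 on the log2(TPM + 1) scale and 0.43 without RhoB-/- replicate 5. The spread between WT mice was 85.4% of their mean, against 17.96 to 18.9% for the Sprr2a copies.

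Sprr2h was a low-level member. It was at 0.68, 0.12, 2.53, 0.45 and 1.34 TPM in the WT and at 9.59, 2.46, 2.92, 3.39 and 6.52 TPM in the RhoB-/- libraries. The groups met at a single pair, WT replicate 3 and RhoB-/- replicate 2. The means were 1.02 ± 0.953 and 4.98 ± 3.03 TPM (SD, n = 5 each) and the difference was 1.54 on the log2(TPM + 1) scale, or 1.43 without RhoB-/- replicate 5. At this level the pseudocount matters, and with 0.1 in place of 1 the difference was 2.45.

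Sprr2b and Sprr2d were barely or not seen. Sprr2b was listed at 0 in WT replicates 1, 2 and 4, at 0.18 and 0.73 TPM in WT replicates 3 and 5, and between 0.22 and 0.49 TPM in the RhoB-/- libraries. These ranges overlapped, and all its values were under 1 TPM. Sprr2d was listed at 0 in all 10 libraries.

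**Figure D4:**
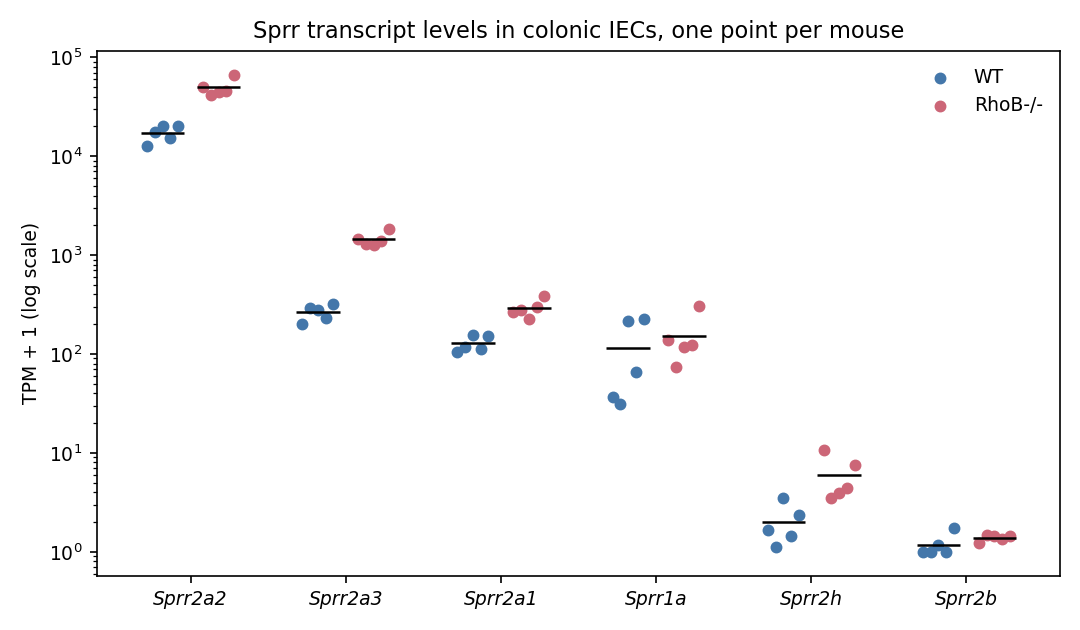
Each point is the level of a Sprr gene in 1 mouse (TPM + 1, log scale) for WT and RhoB-/- mice (n = 5 each), with a bar at the mean. Sprr2a1, Sprr2a2 and Sprr2a3 separate by genotype without overlap, Sprr1a and Sprr2h overlap, and Sprr2b lies at the floor. Sprr2d is not drawn.

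The order of listed mean levels, Sprr2a2, Sprr2a3, Sprr2a1, Sprr1a, Sprr2h, Sprr2b and Sprr2d, was the same in both genotypes. The places of Sprr2a1 and Sprr2a2 in it rest on the uncertain division of their reads. Sprr2a1 and Sprr1a overlapped in their ranges over mice in both, and in WT mice so did Sprr2h with Sprr2b and Sprr2b with Sprr2d. Of the 7 members, 5 had the mean of at least 1 TPM needed to enter the fit over all genes, and 6 were above 0 in at least 1 library. In that fit, by limma on log2(TPM + 1), 4 members (Sprr2a1, Sprr2a2, Sprr2a3 and Sprr2h) passed the call of an adjusted p below 0.05 and a fold above 1.5 as higher in RhoB-/- mice, where 718 of 12870 genes tested, or 5.58%, did so, and no member passed as lower (7.13% of all genes did). For 3 members every RhoB-/- library was above every WT library, as for 5.97% of all genes tested, and for none were they all below, as for 8.55%. Without RhoB-/- replicate 5, 574 genes passed as higher and 724 as lower. The counts of members restate how the genes were picked. The median difference of all tested genes was -0.13 on the log2 scale, and after each library was recentred Sprr2a2 differed by 1.64 and Sprr2a3 by 2.58.

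The remaining 10 Sprr rows of the cluster were all but silent in these libraries. Sprr2c-ps, Sprr2e, Sprr2g, Sprr3 and Sprr4 were listed at 0 in every library. Sprr1b, Sprr2f, Sprr2i, Sprr2j-ps and Sprr2k were above 0 in some, with 0.47 TPM (Sprr2k in RhoB-/- replicate 1) as the highest value and none above 0 in as many as 5 libraries. They were thus too low for a test.

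How the members varied between mice of 1 genotype was read from the deviations of log2(TPM + 1) from the genotype means over the 10 libraries, as a description. Sprr2a2 and Sprr2a3 moved most closely (r = 0.95), followed by Sprr2a1 with Sprr2a2 (0.85) and with Sprr2a3 (0.84), pairs that share part of their reads. Sprr1a, which shares no window with them, had an r of 0.81 with Sprr2a2, of 0.80 with Sprr2a1 and of 0.67 with Sprr2a3. Sprr2h was looser, with 0.74 to Sprr1a, 0.60 to Sprr2a2 and 0.44 to Sprr2a3. All 10 points share library composition, and RhoB-/- replicate 5 was the highest RhoB-/- library for all of Sprr1a and the 3 copies.

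Likeness to Sprr2a2 was read over the tested genes. Members and genes with no symbol or a provisional one (Gm or AC numbers, Rik names) were left out. The 8 whose deviations were then most like those of Sprr2a2 were Gna13 (r = 0.98), Eif2s2 (0.98), Noct (0.98), Ptp4a1 (0.97, 1 of 2 rows with that symbol), Ptk2b (0.96), Eps8l3, Fosl2 and Piga (each 0.96), over 10 libraries. Likeness within genotypes did not go with an equal difference between them. Eif2s2, a subunit of the translation initiation factor eIF2, differed by 0.84 on the log2 scale (adjusted p = 0.000357, limma), Noct, a gene of circadian output, by 0.86 (adjusted p = 0.0119) and Eps8l3 by 0.75 (adjusted p = 0.0198). Gna13, which encodes a G protein alpha subunit, differed by 0.11 (adjusted p = 0.503) and Fosl2, an AP-1 subunit, by 0.29 (adjusted p = 0.242). The genes most like Sprr1a were looked up after its spread had been seen, with the same kinds of genes left out. They included the tight junction gene Cldn4 (r = 0.97) and the EGF receptor ligand Areg (0.95). Areg was at 78.7, 85.9, 357.8, 101.7 and 347.2 TPM in WT replicates 1 to 5 and at 258.9, 159.5, 292.9, 301.7 and 378.1 TPM in the RhoB-/- libraries. WT replicates 3 and 5 were thus the high WT libraries for Areg as for Sprr1a.

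Promoters were read from RefSeq windows of 250 bases before to 50 after the start (GRCm38.p6), which were found for all 7 members and for 14 of the 17 Sprr genes. The windows of Sprr2a1 and Sprr2a2 were the same over 300 bases, and that of Sprr2a3 was the same as both over the 272 bases where they overlap. They are shown because these copies moved together, and Sprr2h and Sprr1a because they differ from them. Capitals mark the AP-1 site (TGANTCA), the octamer (ATTTGCAT) and the TATA box (TATAAA), searched on both strands. Only the bases before the start are printed, on the strand of the gene.
Sprr2a2 (chr3:92250397-92250646, plus strand): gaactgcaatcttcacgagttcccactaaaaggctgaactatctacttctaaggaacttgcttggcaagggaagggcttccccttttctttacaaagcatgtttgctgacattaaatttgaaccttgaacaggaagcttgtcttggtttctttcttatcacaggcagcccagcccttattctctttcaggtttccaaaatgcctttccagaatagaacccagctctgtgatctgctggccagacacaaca
Sprr2h (chr3:92385435-92385684, plus strand): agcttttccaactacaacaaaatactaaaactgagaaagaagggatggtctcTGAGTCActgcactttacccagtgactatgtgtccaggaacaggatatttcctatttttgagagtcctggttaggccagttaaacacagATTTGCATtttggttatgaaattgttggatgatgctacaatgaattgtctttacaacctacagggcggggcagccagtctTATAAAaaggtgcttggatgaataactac
Sprr1a (chr3:92485896-92486131, minus strand): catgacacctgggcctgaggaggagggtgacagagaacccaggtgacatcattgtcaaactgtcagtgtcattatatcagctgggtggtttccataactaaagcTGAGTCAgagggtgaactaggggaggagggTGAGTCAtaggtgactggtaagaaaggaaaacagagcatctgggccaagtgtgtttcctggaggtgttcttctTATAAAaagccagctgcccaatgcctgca

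In the full windows of 300 bases, an AP-1 site was found in 4 of the 7 members (Sprr1a, Sprr2b, Sprr2d and Sprr2h) and in 5 of 7 other Sprr genes with a window, against 7.81% of all 32851 RefSeq promoter windows. The octamer, a known element of Sprr2 promoters, was in 3 of 7 members (Sprr2b, Sprr2d and Sprr2h) and 4 of 7 others, against 1.74% of all windows. A TATA box was in 4 of 7 members and 6 of 7 others, against 13.6%. The interferon-stimulated response element was in none of the 14 windows, against 3.44% of all, and a STAT site (TTCNNNGAA) was in 1 member, Sprr2a3, and 1 other gene, against 8.30%. The windows of the 3 highest members held none of the AP-1, octamer and TATA letters. Those windows lie before the RefSeq starts, and the start of the 722-base Sprr2a2 transcript in GENCODE is elsewhere. Its first base lies 29 bases after the first T of a TATA box, in capitals here.
Sprr2a1 first exon (chr3:92215890-92215919, plus strand, GRCm38): cTATAAAaaagagtctcagtgcttgactgc

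Precursors of the cornified envelope outside the Sprr family were near 0 in both genotypes. Of 37 other listed genes of the complex (loricrin, involucrin, late cornified envelope and related genes), none reached a mean of 1 TPM, and 22 were listed at 0 everywhere. All together they summed to 0.96 to 1.81 TPM (WT) and 0.38 to 0.97 TPM (RhoB-/-). Smcp, Pglyrp3 and Pglyrp4, among the 22, lie in the complex but are not envelope precursors. Of the 8 tested S100 genes of the complex, which encode calcium-binding proteins, none passed in either direction in the limma fit, also at an unadjusted p below 0.05, with a median of 0.11 on the log2 scale. In this and the following lists, each count of 0 was also 0 at an unadjusted p below 0.05 and the same fold. S100a6, the most abundant, averaged 1267 TPM (WT) and 1307 TPM (RhoB-/-, log2 difference 0.05, adjusted p = 0.808, limma). S100a10, the next most abundant, averaged 588.3 and 853.0 TPM (log2 difference 0.52, adjusted p = 0.0363) and missed the call by its fold, and the list had 1 higher call after recentring.

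Of the 12 tested genes listed as cross-linking, scaffold or associated genes of the envelope, 1 rose and 2 fell, with a median of 0.09. Of all genes 5.58% rose and 7.13% fell. The 1 that rose, Slpi, and 1 of the 2 that fell, Casp14, neither cross-link nor scaffold it. Slpi, a secreted protease inhibitor, rose from 1.504 ± 0.423 to 13.8 ± 8.37 TPM (SD, n = 5 each, log2 difference 2.26, adjusted p = 0.00784, limma). Casp14, the keratinocyte caspase, fell by 1.54 on the log2 scale (adjusted p = 0.00171). Tgm3, a transglutaminase that cross-links Sprr proteins in skin, averaged 185.5 ± 95.7 TPM (WT) and 81.9 ± 38.5 TPM (RhoB-/-, log2 difference -1.15, adjusted p = 0.0377), a call that was kept in 4 of 10 fits that each left out 1 library. It was lost without RhoB-/- replicate 1, 3 or 5 or WT replicate 2, 4 or 5, with an adjusted p of up to 0.104. Tgm1, the main transglutaminase of the epidermis, averaged 0.01 and 0.11 TPM. Tgm2 was at 10.1 ± 1.49 and 18.8 ± 9.03 TPM (log2 difference 0.72, adjusted p = 0.0879).

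Markers of stratified squamous epithelium were mostly near 0. Of 20 such genes 15 had a mean under 1 TPM, and Trp63, Dsg1a and Krtdap, among the defining ones, were listed at 0 in every library. Dsg3, a desmosomal cadherin below the filter, was at 0.11 to 0.36 TPM (WT) and 0.65 to 1.90 TPM (RhoB-/-) without overlap, and Krt13 averaged 0.13 and 0.55 TPM. None of the 5 tested passed in either direction, with a median of 0.00 on the log2 scale. Their sum of 169.3 to 216.3 TPM (WT) and 207.1 to 312.2 TPM (RhoB-/-) came mostly from Perp and Serpinb5, which simple epithelia express too, and Perp averaged 162.5 and 224.1 TPM (log2 difference 0.45, adjusted p = 0.0287, a fold under 1.5).

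Of 25 tested transcription factors of the classes that bind Sprr promoters, 6 rose and none fell, where 5.58% and 7.13% of all genes did, with a median of 0.14. Without RhoB-/- replicate 5, 5 rose. Ets1, 1 of the 6, averaged 0.82 TPM in WT mice and passed the filter on mean TPM through RhoB-/- mice, at 2.19 TPM. At a mean TPM of at least 5, 5 rose. Irf7 rose from 54.3 ± 19.4 to 445.0 ± 104.3 TPM (log2 difference 3.05, adjusted p = 3.89e-06, limma), Stat2 by 2.03 and Irf9 by 1.55 on the log2 scale. The 3 most abundant factors of the list, Fos and Jun of the AP-1 class and Elf3 of the Ets class, did not pass. Fos averaged 1006 and 1018 TPM in WT and RhoB-/- mice (adjusted p = 0.778), Jun 651.6 and 585.3 TPM (adjusted p = 0.762) and Elf3, an epithelial Ets factor, 429.6 and 503.8 TPM (adjusted p = 0.43). Klf4 was at 314.0 ± 93.6 and 378.7 ± 47.8 TPM (adjusted p = 0.25).

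Receptors and adaptors of signals that are known to induce Sprr2 genes included 6 that rose and 1 that fell among 24 tested (5.58% and 7.13% of all genes), with a median of 0.38. The bacterial sensors Tlr2 and Tlr4 rose by 1.11 and 0.99 on the log2 scale (adjusted p = 0.00235 and 0.00223, limma). Il4ra, the receptor chain shared by interleukins 4 and 13, rose from 7.38 ± 0.790 to 14.8 ± 4.35 TPM (log2 difference 0.88, adjusted p = 0.00557). Il22ra1, the epithelial chain of the interleukin 22 receptor, rose by 0.76 (adjusted p = 0.00728). Il1r1 fell by 0.79 (adjusted p = 0.0192), a call lost without WT replicate 2 (adjusted p = 0.0509).

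Genes that gut epithelium switches on in contact with bacteria showed the most calls of the 12 lists. Of 14 tested, 10 rose and none fell, against 5.58% of all genes, and their median was 2.14. Without RhoB-/- replicate 5, 9 rose. Ang4, an antimicrobial ribonuclease, rose from 160.3 ± 144.5 to 2331 ± 581.8 TPM (SD, n = 5 each, log2 difference 4.53, adjusted p = 0.00112, limma). Retnlb, a goblet cell protein that kills bacteria, rose from 132.4 ± 94.7 to 1868 ± 680.5 TPM (log2 difference 3.96, adjusted p = 2.91e-05). Saa3 rose by 3.95 and Duoxa2, the maturation factor of the epithelial peroxide-producing oxidase, by 3.19 on the log2 scale. The summed level of the list, 758.02 to 1428 TPM (WT) and 6149 to 12532 TPM (RhoB-/-), was highest in RhoB-/- replicate 1, unlike Sprr2a2, which was highest in RhoB-/- replicate 5. This list was compiled with earlier results of these libraries known.

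Genes that regenerating gut epithelium is known to switch on did not move as 1 group. Of 13 tested, 4 rose and 2 fell, where 5.58% and 7.13% of all genes did, with a median of 0.05. Ly6d, 1 of the 4, averaged 0.28 TPM in WT mice and passed the filter on mean TPM through RhoB-/- mice, at 2.81 TPM. At a mean TPM of at least 5, 2 rose and 1 fell. Ly6a, the Sca-1 antigen, rose from 76.3 ± 22.9 to 775.5 ± 152.9 TPM (log2 difference 3.35, adjusted p = 5.53e-07, limma), Ly6c1 rose by 4.06 and Ereg by 1.03 on the log2 scale. F3 fell by 1.27 (adjusted p = 0.00839), and Clu fell by 0.73 (adjusted p = 0.0444) in a call that was kept in 4 of 10 fits with 1 library left out and lost without RhoB-/- replicate 1, 2 or 3 or WT replicate 2, 4 or 5 (adjusted p up to 0.109). Anxa1 averaged 86.2 and 86.6 TPM (adjusted p = 0.98) and Areg 194.3 and 278.2 TPM (adjusted p = 0.211).

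Among the 14 colon epithelial markers 4 rose and none fell, with a median of 0.29. Beside each count of this paragraph stand the 5.58% of all tested genes that rose and the 7.13% that fell. The 4 colon markers were Aqp8 (1.44 on the log2 scale), Krt20 (1.17), Car4 (1.11) and Vil1 (0.65), genes of mature colonocytes. Slc26a3, of the same list, differed by 0.28 (adjusted p = 0.324, limma) and was not called. The Vil1 call was lost without RhoB-/- replicate 5, with quantile normalization and without mitochondrially encoded genes, where its fold was under the threshold of 1.5. Car1, the most abundant, averaged 12755 TPM (WT) and 17151 TPM (RhoB-/-, adjusted p = 0.203, limma), a level below that of Sprr2a2 in both. All 6 tested leukocyte markers rose, among them Ly6g by 1.74 and Ptprc, the pan-leukocyte antigen, by 1.18, the latter to 5.92 ± 2.28 TPM. The filter partly sets this count, since it uses the mean over both genotypes and left out 8 of the 14 markers. Cd8a and Cd68 averaged 0.83 and 0.99 TPM in WT mice and passed it through RhoB-/- mice, at 2.94 and 3.74 TPM. At a mean TPM of at least 5, 1 leukocyte marker was called higher. Of 2 tested mesenchymal markers Dcn rose by 1.51 (adjusted p = 0.0202), a call lost without RhoB-/- replicate 4 or WT replicate 4 (adjusted p = 0.0542 and 0.0509). The part of these shifts in the Sprr levels was not tested.

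**Figure D5:**
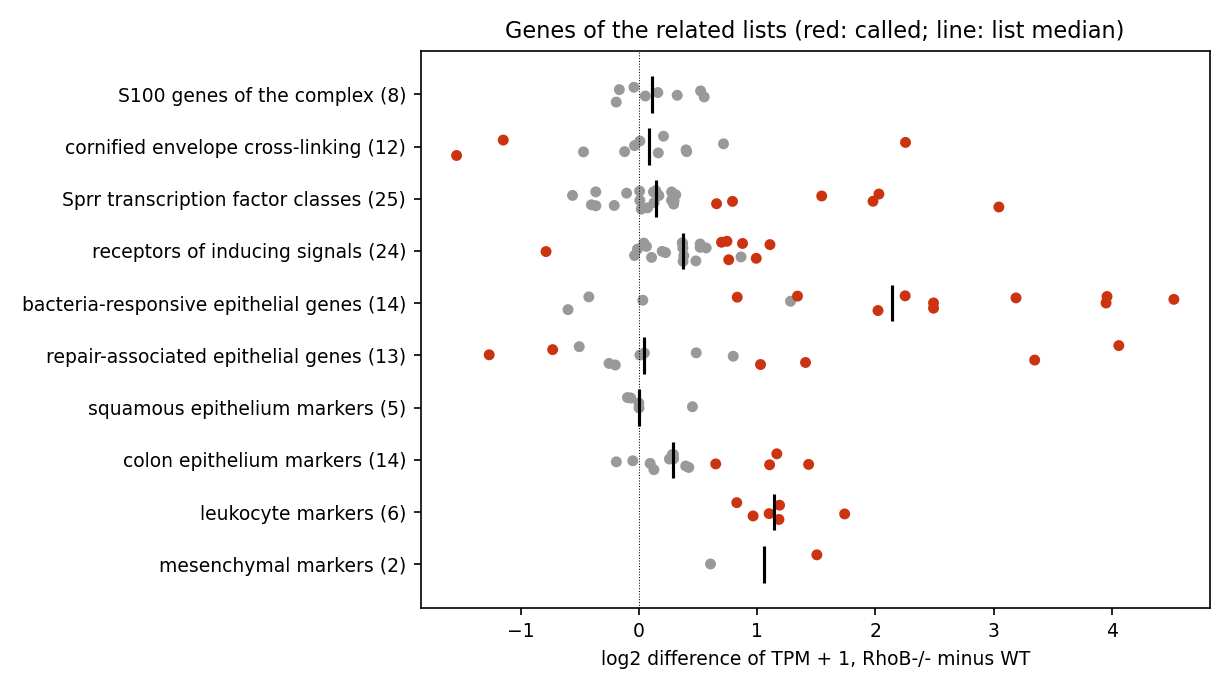
Each point is the log2 difference of TPM + 1 (RhoB-/- minus WT) of 1 tested gene of the related lists, with red points for genes called in the limma fit over all genes and a line at the median of each list. The bacteria-responsive genes have a median of 2.14 with 10 of 14 called higher, while the S100 and squamous lists have no called gene.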

How the data were processed

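Colonic IEC RNA of 5 WT and 5 RhoB-/- mice was used as the authors deposited it, as a table of TPM values per gene with 2 decimals. According to the study and the submitters' processing notes, paired-end TruSeq reads were trimmed with SeqPrep and Sickle, aligned with HISAT2 to GRCm38.p6, assembled with StringTie and quantified with RSEM. Versions and the annotation release are not given in the sources used here. The TPM columns summed to 971419 to 993229 per library and hold no read counts, so depth and counting error are unknown and errors are SD between mice. TPM is relative, so a gene that takes much of a library lowers the rest.

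Genes averaging at least 1 TPM over the libraries (12870 of 55487) were fitted on log2(TPM + 1) with limma 3.58.1 in R 4.3.3 (lmFit, eBayes with trend) over all 10 libraries. A gene was called at a Benjamini-Hochberg adjusted p below 0.05 over all tested genes and a fold above 1.5, and "rose" and "fell" are used for called genes. Differences on the log2(TPM + 1) scale understate those of low genes.

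The 7 members and the 12 gene lists were chosen with earlier results of these data known. Named were all Sprr genes, Rhob, and up to 4 called genes per direction and the 3 most abundant genes of each list. The 8 genes most like Sprr2a2, members and genes with no or a provisional symbol aside, were also named. A gene that meets the rule is left out of the text. Genes named outside it (those most like Sprr1a, and Tgm1, Tgm2, Klf4, Ets1, Slc26a3, Dsg3, Krt13, Itgam, S100a8, S100a9, Trp63, Dsg1a, Krtdap, Smcp, Pglyrp3 and Pglyrp4) and the promoter motifs were chosen after values or sequences were seen. Positions, transcripts and coding sequences are from GENCODE M21 and promoters from RefSeq. RSEM divides reads shared by gene copies by estimation. Samples were grouped by the labels. The alternatives tried were another pseudocount, 2 other filters, quantile normalization, recentring, no trend, a replicate block, unadjusted p, each library left out, and, chosen after seeing the data, TPM rescaled without mitochondrially encoded genes or without the 7 members. No exact permutation test was run on the other Sprr genes, since none was above 0 in 5 libraries.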

Additional observations from a re-analysis of the deposited data

Results flagged for a closer look

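The 6 members above 0, the sums of the members and of the Sprr2a copies, and Rhob, 18 groups of 5 libraries in all, were examined for a library far from the other 4 of its genotype. For separate groups of normally distributed values chance marks about 1 in 20, and 3 of 18 were marked. These groups are not separate, since both sums mostly repeat the values of Sprr2a2. Values near 0, as of Sprr2b, are not normally distributed either, so that rate is only a rough guide. Rhob in RhoB-/- replicate 5 was 110.9 TPM, while the other 4 libraries of that label were under 1 TPM, and this gap was 0.996 of the range of the group. Sprr1a in RhoB-/- replicate 5 was 303.4 TPM, with a gap of 0.722 of the range. Sprr2b in WT replicate 5 was 0.73 TPM, with a gap of 0.753 of the range, at a level where every value was under 1 TPM. RhoB-/- replicate 5 was also the highest library for Sprr2a1, Sprr2a2 and Sprr2a3, although it was not marked there.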

How the results depend on the processing

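The differences of the 6 genes above 0 kept their sign under every alternative computed for them, and Sprr2d, at 0 everywhere, was not run. The log2 difference of the 7 summed genes ranged from 1.43 to 1.61 when 1 library was left out, and was 1.66 after recentring, 1.59 with quantile normalization and 1.48 without mitochondrially encoded genes. The sum of the Sprr2a copies ranged from 1.44 to 1.61, Sprr2a3 from 2.37 to 2.54, Sprr2a1 from 1.07 to 1.26 and Sprr1a from 0.38 to 1.09. Sprr2h and Sprr2b depended on the pseudocount, with 2.45 and 1.34 at 0.1, and on averaging, with 2.28 and 1.08 as log2 ratios of mean TPM.

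Over all genes the split of 718 higher to 918 lower calls turned with scaling, to 950 and 539 after recentring and to 845 and 581 with quantile normalization. Higher calls also outnumbered lower ones without the 7 members (772 and 748), at a mean TPM of at least 5 (565 and 548), and without RhoB-/- replicate 2 (791 and 724), WT replicate 2 (689 and 638) or WT replicate 4 (626 and 614). Genes lower were 1403 without mitochondrially encoded genes. With 1 library left out, 574 to 791 genes were higher and 614 to 1347 lower. Groups did not overlap for 1868 genes, for 2814 without mitochondrially encoded genes, and for 1916 to 3404 with 1 library left out (3404 without RhoB-/- replicate 3).

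Of the lists, S100 genes had 1 higher call without mitochondrially encoded genes, without the 7 members and after recentring. The cross-linking list had 2 higher calls with quantile normalization, recentring or unadjusted p, and 1 lower call after recentring, without a filter or at a mean TPM of at least 5. Receptors had 10 higher calls after recentring, and 0 lower without a filter or at a mean TPM of at least 5. Repair genes had 1 lower call without the 7 members, with quantile normalization, without a filter or at a mean TPM of at least 5, where 2 were higher and leukocyte markers had 1. Without a filter, 1 squamous marker was higher and mesenchymal markers had 0. With 1 library left out, higher and lower calls ranged from 0 to 1 and 0 to 0 (S100), 1 to 2 and 1 to 3 (cross-linking), 6 to 7 and 0 to 1 (receptors), 9 to 10 and 0 to 0 (bacteria-responsive), 4 to 5 and 1 to 3 (repair), and mesenchymal markers from 0 to 1 higher. The cause was not tested.

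The genotypes share replicate numbers, but the mice are different animals. Deviations of same-numbered libraries correlated at -0.09 to 0.07, and 1 of 5 correlated best with its own number. With a replicate block, 715 genes were higher and 812 lower, and the differences of the 6 genes above 0 were the same. Depth is unknown, so values under 1 TPM, as of Sprr2b, cannot be read as presence or absence.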
